A study of Mus musculus with 6 samples.

Results

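Ccl2, Ccl6, Ccl7, Ccl9 and Ccl24 encode CC chemokines, small secreted proteins that attract leukocytes and that monocytes and macrophages are well known to make. They were chosen by symbol, with earlier results of these data known, and make up 5 of the 559 genes in the deposited table. The RNA came from natural killer (NK) cells purified from C57BL/6 mouse spleens and treated for 36 h with 0.2 mM oleic acid, abbreviated OA, which is a common dietary fatty acid (3 libraries), or without it as control (3 libraries). The question was which transcripts of the cells differ with OA. The treatment was performed once, per the labels, so p-values measure the spread between these libraries, which may be technical.

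A CC chemokine has a pair of adjacent cysteines near its start and acts on G protein-coupled receptors of leukocytes. Ccl2 and Ccl7 are ligands of CCR2, the receptor that draws monocytes out of the bone marrow, and Ccl7 also binds other CC receptors. Ccl6 and Ccl9, which are rodent genes, encode ligands of CCR1, and Ccl24 encodes an eotaxin, a ligand of CCR3 that attracts eosinophils.

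Levels are in TPM, a transcript's length-corrected share of its library, so levels of different genes can be compared. TPM keeps no read numbers, and the depth of each library is unknown. The table held only genes with an authors' Q value under 0.05 (largest 0.0499), so a difference between the groups was already the condition for being listed. The libraries carried transcripts of cells other than NK cells, and the markers moved with the groups. Of 18 NK markers 12 were listed and all 12 fell in OA, with a summed level of 3003 to 3857 TPM in OA and 4561 to 5442 TPM in control. Of 30 monocyte and macrophage markers 11 were listed, of which 10 rose and 1 fell, with a sum of 2892 to 3057 TPM in OA and 2240 to 2587 TPM in control. None of these 11 was at 0 in any library. Listed B cell markers summed to 503 to 592 TPM in OA and 323 to 403 TPM in control, and 23 listed heart muscle genes to 57.2, 558 and 7545 TPM in OA replicates 1, 2 and 3, against 40.0 to 65.3 TPM in control. These calls depended on the libraries: limma called 0 NK markers lower without control replicate 2 and 0 without control replicate 3 (12 and 8 at an unadjusted p under 0.05), and 5 with libraries scaled to equal medians. It called 4 macrophage markers higher and 0 lower without control replicate 2, 6 and 0 without control replicate 3, and 6 and 1 without OA replicate 1, without OA replicate 3 or with equal medians (1 lower at an unadjusted p under 0.05 in each of these fits). Without control replicate 1 and without OA replicate 2 no gene of the table was called. Of 15 neutrophil markers 2 were listed and rose, with a sum of 548 to 603 TPM in OA and 347 to 462 TPM in control. Of 14 eosinophil, mast cell and basophil markers 2 were listed and fell (151 to 177 TPM in OA, 202 to 218.5 TPM in control). Of 13 T cell markers 2 were listed and fell (194 to 240 TPM in OA, 259 to 291 TPM in control). In the last 2 lists limma called 0 lower without control replicate 2 or 3. Of 14 dendritic cell markers 0 were listed, and the CCR3 gene Ccr3 was not analysed here.

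Ccl2, Ccl6, Ccl7 and Ccl9 were higher after OA and Ccl24 was lower. Ccl9 was 1.92-fold, Ccl7 1.71-fold, Ccl2 1.57-fold and Ccl6 1.22-fold the control level, and Ccl24 stood at 0.468 of the control level. In limma on log2(TPM + 1) over all 559 genes, with Benjamini-Hochberg adjusted p under 0.05, 4 of the 5 rose and 1 fell. Of all listed genes, 36.0% rose and 40.1% fell by the same rule, and 76.0% were called in either direction, so passing the test is the usual outcome in this table. The OA and control libraries did not overlap for any of the 5 genes, and of all listed genes 45.1% were higher and 48.5% lower without overlap, 93.6% in all. The median log2 fold change of the 5 genes was 0.65, against 0.14 over all listed genes, which mixes both directions. Listed genes with a positive log2 fold change had a median of 0.45, and those with a negative one had a median of −0.29. Of the 559 genes, 95 had a larger log2 fold change than Ccl2, 85 than Ccl7 and 210 than Ccl6. With libraries scaled to equal medians the same 4 and 1 were called, while the share of all calls that were higher was then 66.4%, against 47.3% with the values as deposited. Without control replicate 1, and without OA replicate 2, limma called 0 of the 5 genes and 0 of all 559. All 5 had an unadjusted p under 0.05 in each case, as had 339 and 327 of all 559 genes, so this too is a usual outcome.

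**Figure D1:**
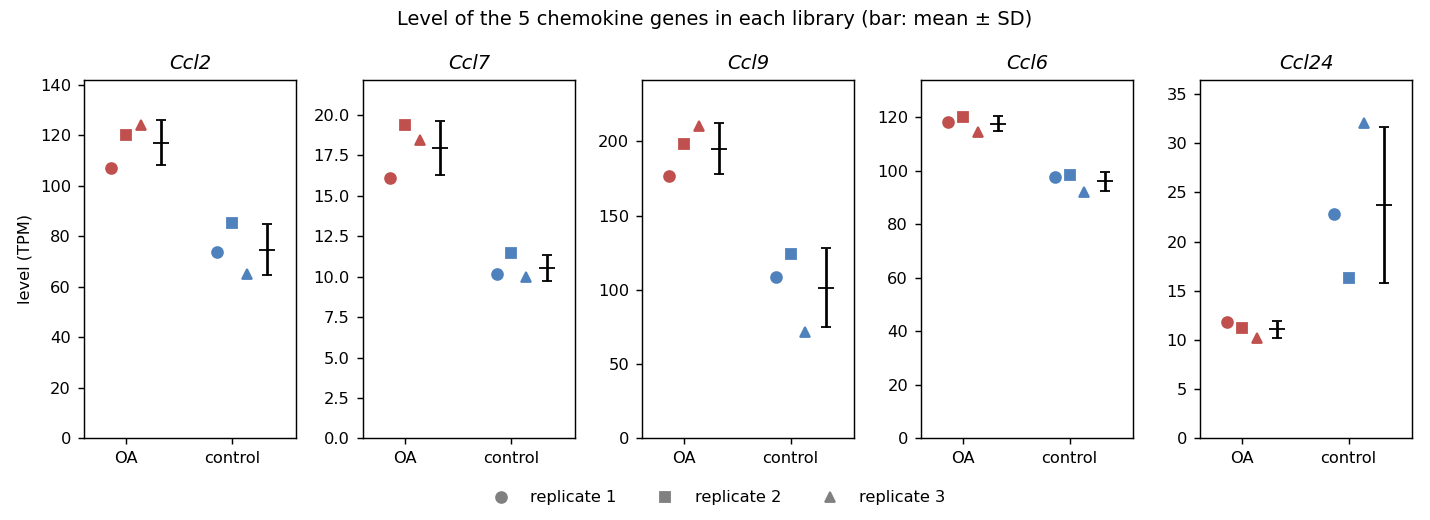
TPM (vertical axis, from 0) of each chemokine gene in the 3 OA libraries and the 3 control libraries; symbols mark replicate numbers and the black bars the mean ± SD of 3 libraries. Ccl2, Ccl7, Ccl9 and Ccl6 lie higher in every OA library than in any control library, Ccl24 lies lower, and control replicate 3 is the lowest for Ccl9 and the highest for Ccl24.

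Ccl2 and Ccl7, the ligands of CCR2, rose side by side. Ccl2 stood at 107.12, 120.05 and 123.97 TPM in OA replicates 1, 2 and 3, against 73.73, 85.12 and 64.99 TPM in control replicates 1, 2 and 3. The lowest OA library lay above the highest control library, and OA replicates 2 and 3 were close to each other. The log2 fold change of Ccl2 was 0.65 (SE 0.118, 95% interval 0.35 to 0.95, adjusted p = 0.026, limma). Ccl7 was a much less abundant transcript, at 16.08, 19.37 and 18.43 TPM in OA replicates 1, 2 and 3, against 10.18, 11.46 and 9.96 TPM in control replicates 1, 2 and 3. Its controls lay within a narrow band, all under the lowest OA library. The log2 fold change of Ccl7 was 0.72 (SE 0.092, 95% interval 0.48 to 0.95, adjusted p = 0.026, limma). The pseudocount lowers the fold change of a gene at this level: it was 0.76 with a pseudocount of 0.1 and 0.56 with 5.

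Ccl2 and Ccl7 kept nearly the same proportion in all 6 libraries. The level of Ccl2 divided by that of Ccl7 was 6.66, 6.20 and 6.73 in the OA libraries and 7.24, 7.43 and 6.53 in the control libraries, and these ranges overlap. The genes are neighbours in the annotation. On GRCm38, Ccl2 lies at chr11:82035577-82037452 and Ccl7 at chr11:82045712-82047525, 8.26 kb apart, and each has 3 exons. Their receptor gene Ccr2 went the other way. It stood at 110.5 ± 8.02 TPM in OA and 132 ± 10.6 TPM in control (SD, n = 3 each), a log2 fold change of −0.25 (adjusted p = 0.0459, limma). Ccr2 did not pass with libraries scaled to equal medians or in any of the 7 fits that left libraries out.

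Ccl9 and Ccl6, the ligands of CCR1, rose by different amounts. Ccl9 stood at 176.52, 198.29 and 210.62 TPM in OA replicates 1, 2 and 3, against 108.4, 124.02 and 71.97 TPM in control replicates 1, 2 and 3. Its control libraries varied more than its OA libraries, with a coefficient of variation of 8.85% in OA and 26.3% in control, and control replicate 3 was the lowest. The log2 fold change of Ccl9 was 0.97 (SE 0.217, 95% interval 0.42 to 1.52, adjusted p = 0.026, limma), and 52 of the 559 listed genes had a larger one. Without control replicate 3 it was 0.74.

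Ccl6 had the smallest change of the 5 genes and the tightest replicates. It stood at 118.17, 120.02 and 114.49 TPM in OA replicates 1, 2 and 3, against 97.83, 98.53 and 91.98 TPM in control replicates 1, 2 and 3. The libraries of each group lay close together, and the gap between the groups was wider than the spread within either. The log2 fold change of Ccl6 was 0.29 (SE 0.0515, 95% interval 0.16 to 0.42, adjusted p = 0.026, limma). Ccl9 divided by Ccl6 was 1.49, 1.65 and 1.84 in the OA libraries and 1.11, 1.26 and 0.783 in the control libraries. Ccl9 was thus the more abundant transcript in every OA library, while in control replicate 3 Ccl6 was. Ccr1, which encodes their receptor, rose to 113 ± 6.72 TPM in OA, against 87.2 ± 2.92 TPM in control (SD, n = 3 each; log2 0.37, adjusted p = 0.026, limma).

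Ccl9 and Ccl6 are also neighbours, on the minus strand of chromosome 11, at chr11:83572917-83578636 and chr11:83587886-83593087 and 9.25 kb apart, with 4 exons each. The RefSeq promoter table (GRCm38.p6) matched 2 of the 5 genes, Ccl6 and Ccl9. The 250 bases before the start site of each are shown. Why these neighbours rose by different amounts was not tested. Positions are counted back from the start site, with −1 as the last base before it. The windows are chr11:83578637-83578886 for Ccl9 and chr11:83593088-83593337 for Ccl6, both written 5′ to 3′ on the minus strand, and capitals mark matches to the motifs searched.
Ccl9: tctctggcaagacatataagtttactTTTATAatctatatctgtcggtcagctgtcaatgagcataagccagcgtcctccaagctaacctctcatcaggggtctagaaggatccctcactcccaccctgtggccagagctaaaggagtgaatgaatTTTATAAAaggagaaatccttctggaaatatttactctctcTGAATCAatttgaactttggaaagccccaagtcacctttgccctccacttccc
Ccl6: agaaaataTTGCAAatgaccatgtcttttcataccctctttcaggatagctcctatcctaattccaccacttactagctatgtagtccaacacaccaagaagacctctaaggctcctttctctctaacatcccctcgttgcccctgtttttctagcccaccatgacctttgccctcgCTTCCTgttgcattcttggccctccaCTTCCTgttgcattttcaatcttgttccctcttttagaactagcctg

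Short motifs of factors known from myeloid and stimulated cells, and the letters TATAAA, were searched on both strands as plain letters. They were chosen after these sequences were seen, so the shares over all promoters given below do not measure how unusual the matches are. The Ccl9 window held 1 match to TGANTCA (AP-1) from −53 to −47 and 3 to the letters TATAAA. Of these 3, those from −224 to −219 and −94 to −89 were on the opposite strand. The match from −92 to −87 was on the strand shown and overlaps the one from −94 to −89. Whether any of the 3 acts as a core promoter element was not tested. The Ccl6 window held neither the AP-1 letters nor TATAAA. It held 2 matches to AGGAAG (ETS family), from −73 to −68 and −47 to −42, both on the opposite strand, and 1 to TTGCAA (C/EBP) from −242 to −237, and the Ccl9 window held neither. Over the same 250 bases of 32851 RefSeq promoters, 6.75% held the AP-1 letters, 12.4% TATAAA, 29.5% the ETS letters and 5.34% the C/EBP letters. The longest run of bases that both windows share is gccctccacttcc, 13 bases, from −14 to −2 before Ccl9 and −55 to −43 before Ccl6. These matches describe the letters and show no binding.

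Ccl24, the eotaxin gene, was the 1 of the 5 that fell. It stood at 11.84, 11.25 and 10.17 TPM in OA replicates 1, 2 and 3, against 22.77, 16.26 and 32.01 TPM in control replicates 1, 2 and 3. The OA libraries were nearly alike, with a coefficient of variation of 7.64%, while the control libraries ranged widely at 33.4%, and even the lowest control library lay above every OA library. The log2 fold change of Ccl24 was −0.98 (SE 0.243, 95% interval −1.60 to −0.37, adjusted p = 0.0282, limma), and 3 of the 559 listed genes had a lower one. Control replicate 3, the highest library, carried part of that size: without it the log2 fold change was −0.75, and without control replicate 2, the lowest, it was −1.22. Ccl24 lies apart from the other genes, at chr5:135569935-135573123 on GRCm38.

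**Figure D2:**
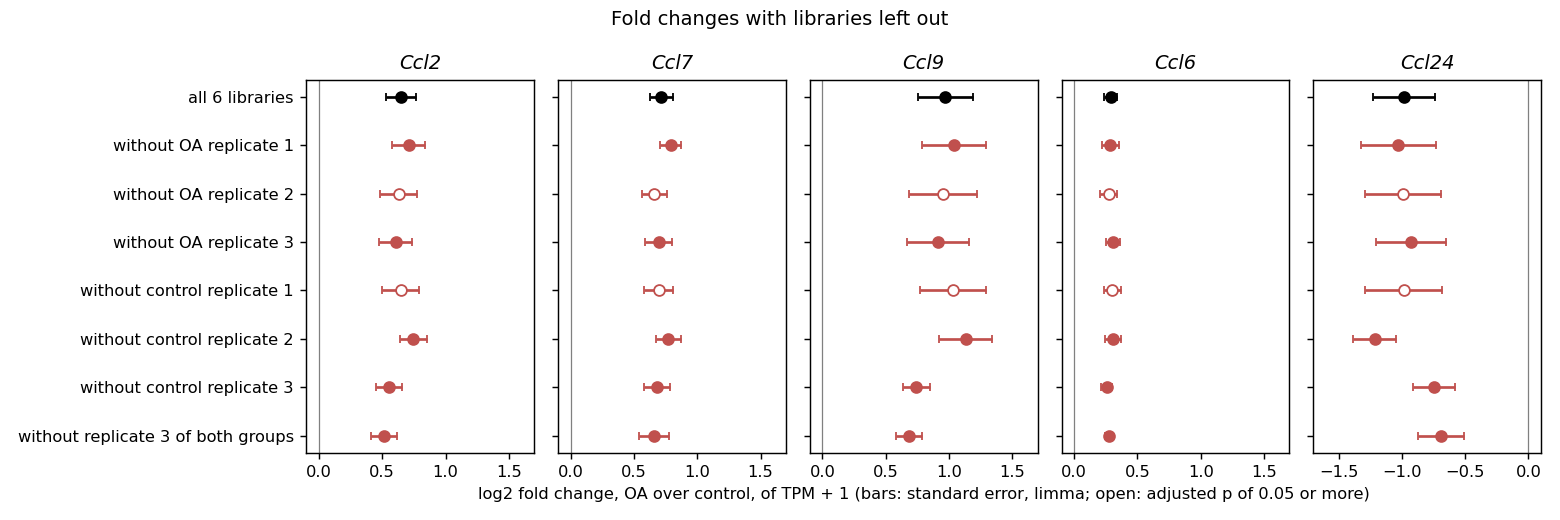
Log2 fold change of OA over control in TPM + 1 (horizontal axis, one panel a gene) with all 6 libraries and with libraries left out, as limma estimate ± standard error; open symbols have an adjusted p of 0.05 or more. Every estimate keeps its side of 0, all 5 genes miss the threshold without OA replicate 2 and without control replicate 1, and Ccl9 and Ccl24 lie nearer 0 without control replicate 3.

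The order of the levels differed between the groups at its low end. In OA, Ccl9 stood highest at 195 ± 17.3 TPM, followed by Ccl6 at 118 ± 2.82 TPM and Ccl2 at 117 ± 8.82 TPM, then Ccl7 at 18.0 ± 1.69 TPM and Ccl24 at 11.1 ± 0.847 TPM (SD, n = 3). In control, Ccl9 stood at 101.5 ± 26.7 TPM, Ccl6 at 96.1 ± 3.60 TPM, Ccl2 at 74.6 ± 10.1 TPM, Ccl24 at 23.7 ± 7.91 TPM and Ccl7 at 10.5 ± 0.810 TPM (SD, n = 3). Ccl6 and Ccl2 in OA, and Ccl9 and Ccl6 in control, did not differ beyond their spread. Ccl7 was above Ccl24 in every OA library and below it in every control library. The 5 genes together summed to 430, 469 and 478 TPM in OA replicates 1, 2 and 3, against 313, 335 and 271 TPM in control replicates 1, 2 and 3. Their sum was 7.84% to 8.84% of the summed level of the 8 listed CC chemokine genes in OA and 6.41% to 6.89% in control.

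Since listed macrophage markers rose in the same libraries, the level of each gene was also set against the summed level of the 11 listed markers. The markers that rose did so unequally, from log2 0.16 for Itgam to 1.62 for Arg1, and Ly6c2 fell. The shares therefore depend on which markers are summed. Ccl6 overlapped between the groups on this scale. It came to 4.09%, 3.95% and 3.75% of the marker sum in the OA libraries and to 3.95%, 3.81% and 4.11% in the control libraries. Ccl2 came to 3.70%, 3.95% and 4.06% in OA and to 2.97%, 3.29% and 2.90% in control, and Ccl7 to 0.556%, 0.637% and 0.603% in OA and to 0.411%, 0.443% and 0.445% in control. The ranges of Ccl2 and Ccl7 did not overlap on this scale. Ccl9 came to 6.10% to 6.89% in OA and 3.21% to 4.79% in control, and Ccl24 to 0.333% to 0.409% in OA and 0.629% to 1.43% in control. Cd14 encodes a receptor of monocytes and macrophages for bacterial lipopolysaccharide, and it rose itself (log2 0.56). Set against Cd14 alone, Ccl2 was 17.4% to 18.2% in OA and 15.7% to 17.2% in control, a smaller step without overlap. The ranges of Ccl7 overlapped on this scale (2.61% to 2.93% in OA and 2.17% to 2.63% in control). Ccl6 was lower against Cd14 in OA, at 16.6% to 19.2%, than in control, at 19.9% to 24.3%. Ccl9 and Ccl24 also stayed apart on this scale. Ccl9 was 28.6% to 30.6% in OA and 19.0% to 25.1% in control, and Ccl24 was 1.48% to 1.92% in OA and 3.29% to 8.46% in control. Il1b, another gene that rose (log2 0.25), gave a further scale. Against Il1b, Ccl2 was 2.87% to 3.19% in OA and 2.10% to 2.54% in control. Ccl7 was 0.432% to 0.491% in OA and 0.309% to 0.342% in control. Ccl9 and Ccl24 stayed apart there too. The ranges of Ccl6 overlapped (2.95% to 3.17% in OA and 2.94% to 2.98% in control). The share of all listed genes that do not overlap on any of these scales was not computed, and in TPM it was 93.6%. Ranges that stay apart here are therefore not shown to be particular to these genes. The markers are those that passed the authors' own test, so the sum is not a measure of cell number, and the part that other cells had in these results was not tested. Fewer cells of a type and less RNA per cell cannot be told apart in bulk RNA.

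**Figure D3:**
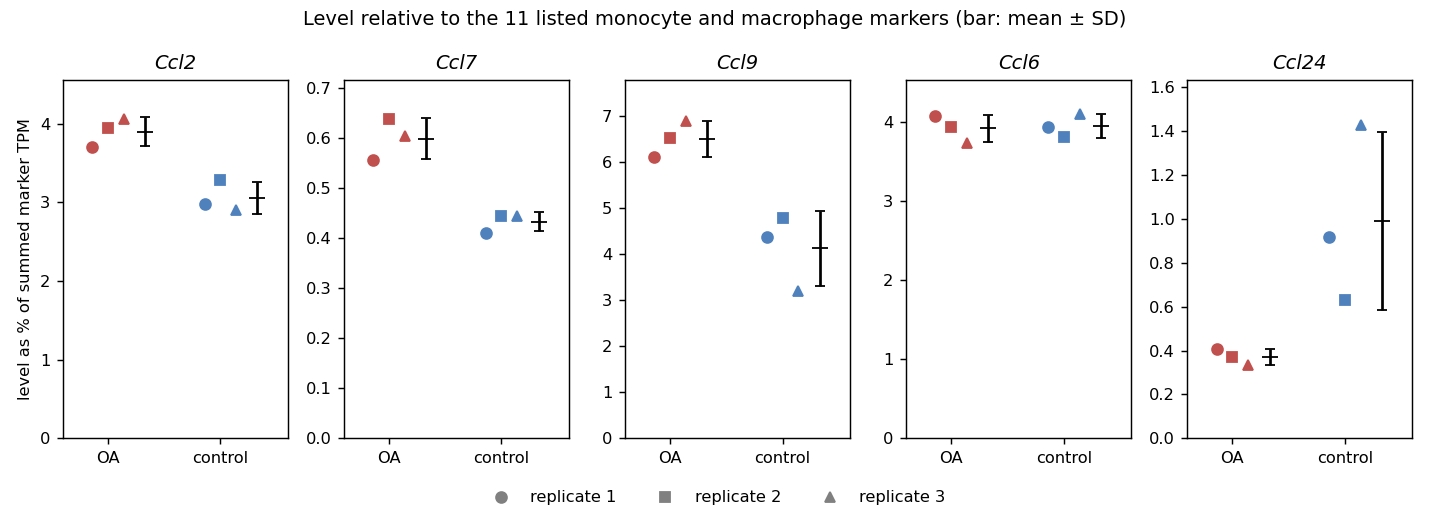
Level of each chemokine gene as a percentage of the summed TPM of the 11 listed monocyte and macrophage markers of the same library (vertical axis, from 0), for the OA and control libraries with mean ± SD of 3. Ccl6 overlaps between the groups at about the same share, 3.75% to 4.09% in OA and 3.81% to 4.11% in control, while Ccl2, Ccl7 and Ccl9 stay higher in OA and Ccl24 stays lower.

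Of the 24 CC chemokine genes looked for, the 3 listed besides these 5 were Ccl3, Ccl4 and Ccl5, which NK cells also secrete and which stood at far higher levels. Ccl3 rose to 2717 ± 91.7 TPM in OA, against 1908 ± 252 TPM in control, and Ccl4 to 1227 ± 39.6 TPM in OA, against 842 ± 125 TPM in control, while Ccl5 fell to 1124 ± 119 TPM in OA, against 1575 ± 69.7 TPM in control (SD, n = 3 each). Of 16 other chemokine genes 8 were listed, of which 4 rose, 3 fell and 1 did not pass. The neutrophil attractants Cxcl1, Cxcl3, Cxcl2 and Cxcl5 rose by 1.23, 1.16, 0.97 and 0.44 on the log2 scale, and the platelet chemokine gene Ppbp had a log2 fold change of 0.21 (adjusted p = 0.0514, limma). The lymphotactin gene Xcl1 and the interferon-induced genes Cxcl10 and Cxcl9 fell, with log2 fold changes of −0.53, −0.58 and −1.14. Without control replicate 2, and without control replicate 3, 1 of these 8 genes, Xcl1, was called lower. Among the 8 CC and 8 other chemokine genes listed, Cxcl9 was the 1 with a lower log2 fold change than Ccl24.

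**Figure D4:**
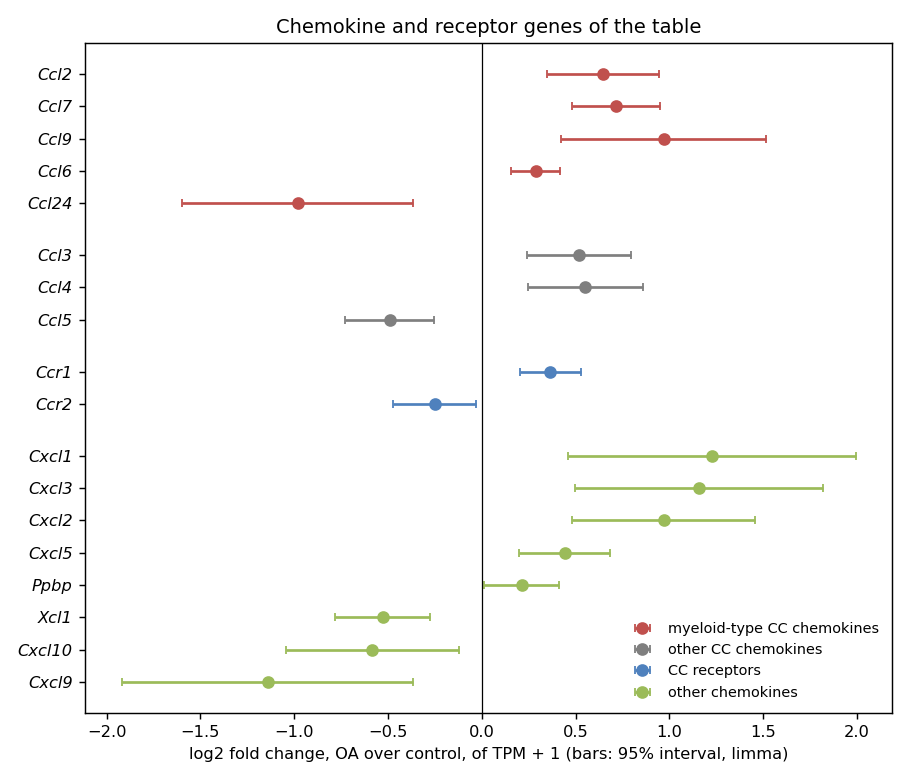
Log2 fold change of OA over control in TPM + 1 (horizontal axis) of listed chemokine genes and of Ccr1 and Ccr2, with 95% intervals from limma. Ccl2, Ccl7, Ccl9 and Ccl6 lie right of 0 with Ccl3, Ccl4, Ccr1 and the CXC genes from Cxcl1 to Cxcl5, and Ccl24 lies left of 0 at −0.98, near Cxcl9 at −1.14.

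A list of 31 cytokines, receptors and transcription factors known to induce chemokines had 12 listed members, of which 8 rose, 3 fell and 1 did not pass. By the smallest p, Il6 (log2 0.33), Il1a (log2 0.38) and Csf3 (log2 0.78), which encode inflammatory cytokines, and Nfkbiz (log2 0.25), which encodes a nuclear regulator of NF-kB, rose (adjusted p = 0.026 for each, limma). The 3 that fell were Ifng, Il13 and Csf2, named after their values were seen. Without control replicate 2 limma called 5 of the 12 higher and 0 lower, and without control replicate 3 it called 6 higher and 0 lower (3 lower at an unadjusted p under 0.05 in each). Among macrophage markers named by the same rule, Cd14 and Mmp12 rose by 0.56 and 0.37 on the log2 scale, and Ly6c2 fell by 0.62. The listed NK markers fell too, and in which cells Ly6c2 fell was not tested.

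The profile of each gene over the 6 libraries was compared with those of all listed genes outside these 5, by the root mean square difference of log2(TPM + 1) after each gene's own mean was taken off. The closest to Ccl2 was Scd1, which encodes a desaturase that makes oleic acid (difference 0.032), followed by Mmp27 (0.0521) and the B cell gene Ly6d (0.0557). Outside the 5 genes Scd1 was also the closest to Ccl7 (0.0854), before LOC105245406 (0.0939), which was listed at 0 in all control libraries, and the B cell gene Mzb1 (0.10). The profiles of Ccl2 and Ccl7 differed by 0.077, so that Ccl2 was closer to Ccl7 than Scd1 was. Closest to Ccl9 were the neutrophil attractant Cxcl2 (0.0433), the lipid droplet regulator Hilpda (0.0533) and the lipid droplet coat gene Plin2 (0.062). Closest to Ccl6 were Smox, which encodes spermine oxidase (0.0148), Cyth3 (0.0186) and Zc3h12a, which encodes an RNase that degrades cytokine transcripts (0.0216). Ccl24 had no close match: its nearest were Il17f (0.192), Nos2 (0.203) and Calhm6 (0.209). These values describe 6 libraries whose groups were already set apart by the selection of the table.

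In the authors' deposited table the log2 fold changes of OA over control were 0.95 for Ccl9, 0.78 for Ccl7, 0.66 for Ccl2, 0.30 for Ccl6 and −1.09 for Ccl24. In the authors' deposited table Ccl2 had the smallest Q value of the 5, at 8.87e-06 (rank 39 of 559), and Ccl7, the least abundant in control, the largest, at 0.0208 (rank 377).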

How the data were processed

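Splenic NK cells with or without OA gave 6 RNA-seq libraries. The deposited table holds TPM per library, made by the authors, with the authors' log2 fold change, P value and Q value per the file headers. The submitters' processing notes name Bowtie2, RSEM 1.3.1, DESeq2 1.4.5 and mm10 but not their roles; annotation and filters are not given in the sources used here. Columns were matched to samples by title and grouped by labelled treatment.

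limma 3.58.1 (R 4.3.3) was run on log2(TPM + 1) over all 559 genes with no covariate or filter, two-sided, with Benjamini-Hochberg adjusted p under 0.05; it was tested on simulated data. The scale understates the change of low genes. TPM keeps no depth, so no count test was run and no counting error is given. A TPM is a share of its library, so a shift in cell mixture or in abundant transcripts moves other genes. The members and the 12 gene lists were chosen with earlier results of these data known. Named were the 5 genes, all listed chemokine and CC receptor genes, the 4 smallest p of other lists (values given where they bear on these genes) and the 3 most alike profiles. Some genes named by this rule are not reported here. No libraries were identical; median absolute log2 differences were 0.0714 to 0.201 within OA and 0.0456 to 0.139 within control, and between the groups from 0.177 to 0.57, so OA replicate 1 was closer to control replicates 1 and 2 than to OA replicate 3. Of all words of 50 bases in GENCODE M21 transcripts, those of Ccl2, Ccl6, Ccl7 and Ccl24 were shared with 0 other genes, and 1.97% of those of Ccl9 were. The promoter motifs were chosen after the sequences were seen. Python 3.11.15, pandas 2.3.3, numpy 2.4.6 and matplotlib 3.10.9 were used. Alternatives were other pseudocounts, a level filter, equal-median scaling, a replicate block, a trended robust prior and left-out libraries.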

Additional observations from a re-analysis of the deposited data

How the results depend on the processing

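Ccl2, Ccl6, Ccl7, Ccl9 and Ccl24 kept their direction in all 13 alternatives and their call in 10 of them. The exceptions were the fits without control replicate 1 (adjusted p 0.0662 to 0.073, limma), without OA replicate 2 (0.0793) and with the replicate number as a block (0.115). With 1 library left out, log2 fold changes ran from 0.55 to 0.75 for Ccl2, 0.26 to 0.31 for Ccl6, 0.66 to 0.79 for Ccl7, 0.74 to 1.13 for Ccl9 and −1.22 to −0.75 for Ccl24. Without replicate 3 of both groups they were 0.51, 0.28, 0.66, 0.69 and −0.69 in the same order. Over the table, 0 to 177 genes were called higher and 0 to 187 lower with 1 library left out, against 201 and 224 with all 6. Equal-median scaling gave 82 lower. With the replicate block the log2 fold changes stayed at 0.65, 0.29, 0.72, 0.97 and −0.98 for Ccl2, Ccl6, Ccl7, Ccl9 and Ccl24, and 0 genes were called higher and 0 lower in limma (149 and 89 at an unadjusted p under 0.05). Whether the replicate numbers pair the libraries cannot be told from 3 libraries per group. Deviations from the group means correlated at 0.327, −0.109 and −0.0809 for numbers 1, 2 and 3. OA replicate 1 correlated best with its own number, and OA replicates 2 and 3 with another number. Unknown depth limits Ccl7 and Ccl24 most, as the least abundant.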

Other observations

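The listed CC chemokine genes of chromosome 11 did not move as a block. Ccl5, which lies 42.4 kb from Ccl9, fell in OA (log2 fold change −0.49, adjusted p = 0.026, limma), while Ccl9, Ccl6, Ccl3 and Ccl4, in the same stretch, rose by 0.97, 0.29, 0.52 and 0.55 on the log2 scale. Ccl7 and Ccl9 lie 1525 kb apart. Ccl4 divided by Ccl5 was 0.965, 1.11 and 1.23 in OA replicates 1, 2 and 3, against 0.548, 0.632 and 0.432 in control replicates 1, 2 and 3.

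The level of Ccl2 divided by that of Ccl24, which combines a gene that rose with one that fell, was 9.05, 10.7 and 12.2 in OA replicates 1, 2 and 3, against 3.24, 5.24 and 2.03 in control replicates 1, 2 and 3. The same quotient for Ccl9 over Ccl24 was 14.9, 17.6 and 20.7 in OA, against 4.76, 7.63 and 2.25 in control. Control replicate 3 was the lowest library in both.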
